A study of Mus musculus with 12 samples.

Results

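Mesothelial marker genes are genes by which the flat cells covering the lung surface are recognised. The 6 genes Msln, Lrrn4, Upk3b, Wt1, Gpm6a and Muc16 were read here, of 18193 genes named by a sole symbol on an Affymetrix mouse expression array. They had 8 of its 45037 probe sets. A probe set was a member when the platform annotation gave it the symbol of 1 of these genes and no other symbol. Upk3b and Gpm6a had 2 probe sets each and the other 4 genes had 1, so the probe set with the highest mean led for each gene. All 6 genes passed the filter on dim signals. The choice of genes did not use their values in these arrays, but it was made with earlier results of these data known.

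Total RNA of whole lung was measured on 12 arrays, 1 array per sample, in 4 groups of 3 male C57BL/6 mice aged 8 to 12 weeks. The groups were wild type under spontaneous breathing (SB), wild type after ventilator-induced lung injury (VILI), and nmMLCK-/- mice, called the knockout here, under SB and after VILI. These mice lack the long form of myosin light chain kinase made outside muscle (nmMLCK), a product of Mylk, and the labels say no more about how they were made. VILI meant 4 h of mechanical ventilation at 65 breaths per minute with an end-expiratory pressure of 0 cm H2O. Each breath was set to 40 ml/kg according to the samples' labels, whereas the text on the series says 30 ml/kg. Without a group ventilated gently, the size of the breath cannot be told apart from the rest of the procedure. All comparisons below ask how the marker genes stood after ventilation in each genotype, or in the knockout at matched ventilation.

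The mesothelium of the lung is the outer layer of the visceral pleura. It secretes lubricating fluid and hyaluronan, keeps epithelial traits such as keratins and junctions, and is known to detach, proliferate or turn fibroblast-like when the pleura is injured. Msln encodes mesothelin, a protein anchored at the mesothelial surface, and Muc16 encodes the large mucin known as CA125, which binds mesothelin. Upk3b encodes a uroplakin and Lrrn4 a membrane protein with leucine-rich repeats, both used as markers of lung mesothelium. Wt1 encodes a zinc finger transcription factor of embryonic and adult mesothelium, and Gpm6a a membrane glycoprotein best known from neurons. Muc16 is also made by airway epithelium, and Gpm6a by other cell types.

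Promoter sequences are shown for Lrrn4, Upk3b and Gpm6a. These 3 genes and Msln had their lowest signal in the same array, as described further on. The sequences come from RefSeq on GRCm38.p6 and cover the 250 bases before the annotated start, printed 5′ to 3′ on the gene's strand. Of the 6 genes, 4 matched an entry, and Msln and Wt1 did not. Capitals mark CATTCC or its reverse complement GGAATG, the core element of TEAD factors, the DNA-binding partners of YAP. The Lrrn4 window is chr2:132880863-132881112 on the minus strand, with the element starting 196 bases upstream of the start site. This window lies within the annotated gene span, 132866686 to 132894010, so this start is not the outermost one. The Upk3b window is chr5:136038246-136038495 on the plus strand, with the element 241 bases upstream. The first of 2 Gpm6a windows is chr8:54779184-54779433 on the plus strand, with the element 125 bases upstream.
Lrrn4: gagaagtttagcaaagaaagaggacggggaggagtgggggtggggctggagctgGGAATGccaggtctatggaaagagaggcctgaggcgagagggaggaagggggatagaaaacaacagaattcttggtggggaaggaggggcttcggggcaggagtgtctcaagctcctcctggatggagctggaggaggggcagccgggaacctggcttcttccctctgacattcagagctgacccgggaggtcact
Upk3b: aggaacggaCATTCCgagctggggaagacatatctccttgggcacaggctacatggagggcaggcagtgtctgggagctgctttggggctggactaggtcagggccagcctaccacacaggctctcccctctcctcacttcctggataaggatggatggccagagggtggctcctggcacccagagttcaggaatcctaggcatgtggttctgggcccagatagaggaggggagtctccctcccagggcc
Gpm6a: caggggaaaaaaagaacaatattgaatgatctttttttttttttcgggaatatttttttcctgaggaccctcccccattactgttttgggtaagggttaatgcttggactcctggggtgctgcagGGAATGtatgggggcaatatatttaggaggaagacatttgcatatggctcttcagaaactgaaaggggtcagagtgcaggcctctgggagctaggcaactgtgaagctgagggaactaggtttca
The element was in neither the second Gpm6a window nor the Muc16 window. Of 32851 promoters of the same length in the table, 12.6% held it on either strand. The AP-1 element TGANTCA, present in 6.75% of all promoters, was in none of the 5 member windows. The WT1 type element GCGTGGGNG, present in 1.65%, was in none of them either. The letters TATAAA, present in 12.4%, were in the second Gpm6a window alone. The motifs were chosen with the values known, and a match describes letters and not a bound site.

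The deposited values are log2 signals, normalized between arrays, with array medians from 4.94 to 5.037. Of 12309 genes tested, limma called those with a Benjamini-Hochberg adjusted p under 0.05, and differences are given with their SE and n = 3 arrays per group. The lung markers Sftpc, Sftpb, Sftpa1, Sftpd, Scgb1a1, Ager, Cldn18 and Napsa had signals of 12.9 to 16.2 in every array. Mylk did not pass in the knockout on any of its 3 probe sets, at differences of -0.97 to -0.22 under SB and -0.74 to -0.14 under VILI (lowest limma adjusted p 0.559). The files do not say which isoform these probe sets read. Among the SB arrays, replicate 3 of wild type and replicate 2 of the knockout stood apart on the second principal component, which held 17.11% of the variance. In whole lung RNA, fewer mesothelial cells and less RNA per cell cannot be told apart.

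After ventilation of the knockout, mesothelin rose the most of the 6 genes. Msln had log2 signals of 8.74, 9.21 and 8.81 in the knockout SB arrays and 9.91, 10.03 and 10.25 in the knockout VILI arrays. The groups did not overlap, and VILI exceeded SB by 1.14 ± 0.22, a 2.21-fold rise (limma adjusted p = 0.00689). Lrrn4 had signals of 8.06, 8.99 and 8.30 under SB and 9.52, 9.59 and 9.24 under VILI, again without overlap. It rose by 1.00 ± 0.23 (limma adjusted p = 0.0148). These were 2 of 6 members called, both upward, where 20.7% of all genes tested were called in this comparison, 8.12% upward and 12.6% downward.

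The other 4 genes were higher in the knockout after VILI without passing the test. Upk3b had signals of 9.23, 10.60 and 9.95 under SB and 10.89, 10.68 and 10.73 under VILI. The SB arrays of this gene were spread over more than 1 log2 unit, while the VILI arrays lay close together. The difference was 0.84 ± 0.28 (limma adjusted p = 0.0559), and on the second Upk3b probe set it was 0.82 ± 0.31 with overlapping groups. Muc16 stood at 6.25, 6.32 and 5.99 under SB and at 6.52, 6.92 and 6.90 under VILI, a difference of 0.59 ± 0.27 (limma adjusted p = 0.135). Wt1 stood at 4.22, 4.29 and 3.48 under SB and at 4.31, 4.32 and 4.74 under VILI, which gave 0.46 ± 0.22 (limma adjusted p = 0.161). The Wt1 signal lay within 2 log2 units of the filter level of 3.06 in all arrays, where signals are compressed. Gpm6a differed by 0.30 ± 0.11 (limma adjusted p = 0.0825) with overlapping groups, and its second probe set by 0.08 ± 0.22.

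Without overlap, 5 of 6 members stood higher in knockout VILI than in knockout SB, a pattern that 17.9% of all genes tested showed. The nearest SB and VILI arrays lay close for Wt1, at 4.29 and 4.31, and for Upk3b, at 10.60 and 10.68. The median difference of the 6 genes was 0.72, against -0.05 over all genes tested.

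**Figure D1:**
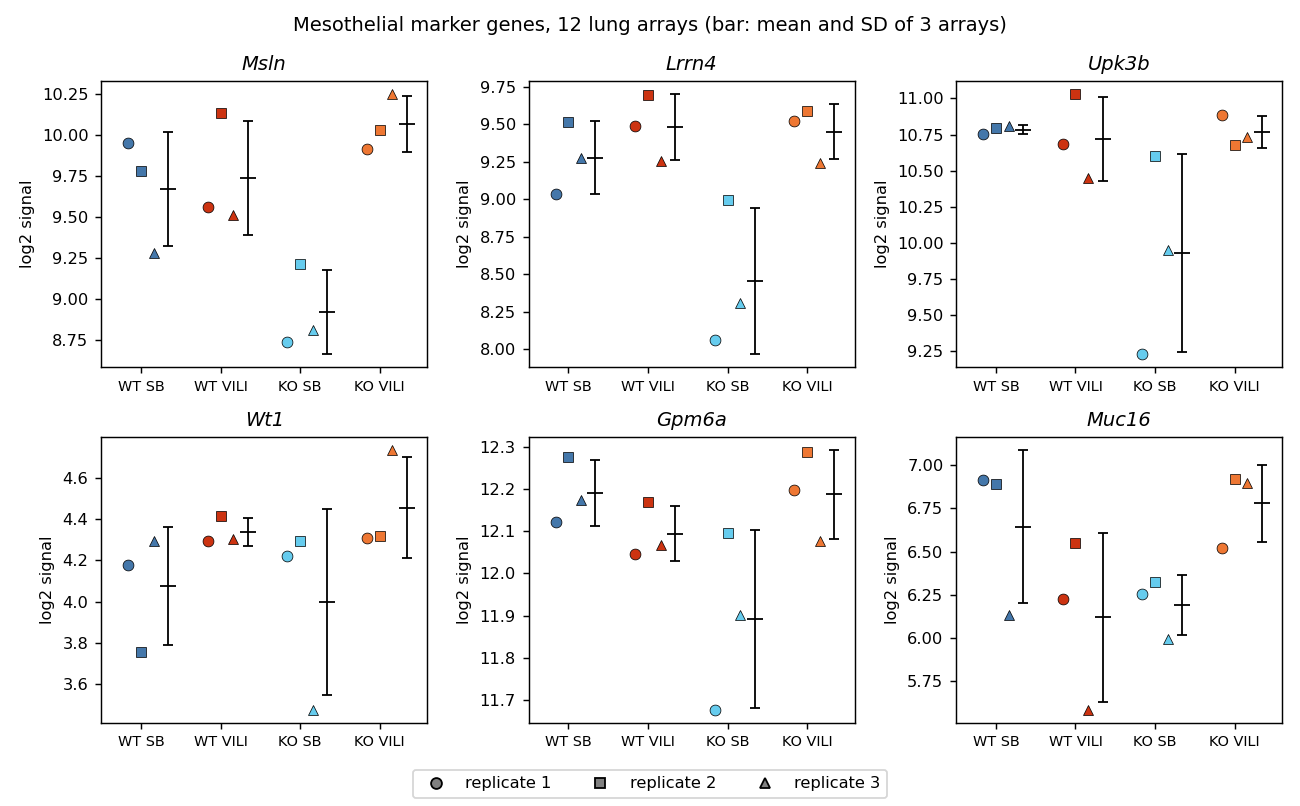
Log2 signal of the leading probe set of each of the 6 genes on the y axis, by group on the x axis (WT, wild type; KO, nmMLCK-/-), with a point per array and a bar for the mean and SD of 3 arrays. Knockout SB replicate 1 is the lowest of all 12 arrays for Msln, Lrrn4, Upk3b and Gpm6a, while the wild-type groups overlap for every gene.

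In wild type, none of the 6 genes passed for VILI against SB, where 15.4% of all genes tested did, 6.34% upward and 9.03% downward. None of the 6 had an unadjusted limma p under 0.05 either, which 31.1% of all genes had. No member had every VILI array above or below every SB array, while 15.5% of all genes stood apart upward and 20.5% downward. Msln stood at 9.95, 9.78 and 9.28 under SB and at 9.56, 10.14 and 9.51 under VILI. The groups overlapped, and the difference of 0.07 ± 0.22 had a 95% confidence interval of -0.42 to 0.55. Lrrn4 stood at 9.03, 9.52 and 9.28 under SB and at 9.49, 9.70 and 9.26 under VILI, with a difference of 0.20 and an interval of -0.30 to 0.71. Upk3b, which was nearly equal in the 3 SB arrays at 10.75, 10.79 and 10.81, stood at 10.68, 11.03 and 10.45 under VILI, with a difference of -0.06 and an interval of -0.68 to 0.55.

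Muc16 had the largest wild-type difference in size. Its signals were 6.91, 6.89 and 6.13 under SB and 6.23, 6.55 and 5.58 under VILI, which gave -0.53 ± 0.27 (limma adjusted p = 0.208). The third SB array overlapped the VILI arrays. Wt1 differed by 0.26 ± 0.22 and Gpm6a by -0.10 ± 0.11, and neither had groups that stood apart. The median over the 6 genes was 0.00, against -0.05 over all genes tested.

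Whether the responses differed between the genotypes was tested as the difference of the VILI effects. It was 1.08 ± 0.31 for Msln, 0.79 ± 0.32 for Lrrn4, 0.90 ± 0.39 for Upk3b, 0.39 ± 0.16 for Gpm6a, 1.12 ± 0.38 for Muc16 and 0.20 ± 0.31 for Wt1. All 6 were positive, and none passed (limma adjusted p from 0.867 to 0.989). Over the alternative fits, some with arrays left out, the lowest value was 0.79 for Msln, 0.25 for Lrrn4 and 0.23 for Upk3b. It was 0.19 for Gpm6a, 0.85 for Muc16 and -0.10 for Wt1. In this comparison 0% of the 12309 genes passed in limma, and 619 of them, 5.03%, had an unadjusted p under 0.05. Of the 6 members, 5 had an unadjusted limma p under 0.05, with Wt1 the exception. The rise called in the knockout alone is therefore not shown to differ from the wild-type response.

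Over both genotypes, with 6 arrays under VILI against 6 under SB, Msln was higher by 0.61 ± 0.15 (limma adjusted p = 0.0121) and Lrrn4 by 0.60 ± 0.16 (limma adjusted p = 0.0157). These 2 of 6 genes stand beside 36.7% of all genes called, which split into 14.1% upward and 22.6% downward. Upk3b at 0.39, Wt1 at 0.36, Gpm6a at 0.10 and Muc16 at 0.03 did not pass. An exact two-sided permutation of SB and VILI within each genotype, with 400 arrangements and a smallest possible p of 0.005, gave p = 0.045 for Msln, 0.03 for Lrrn4, 0.01 for Wt1 and 0.19 for Upk3b. For Gpm6a the exact p was 0.355 and for Muc16 it was 0.935. These exact p-values are not adjusted for the number of probe sets. Without knockout SB replicates 1 and 3 none of the 6 had an exact permutation p under 0.05 (0.125 for Msln, 0.075 for Lrrn4 and 0.15 for Wt1, with 80 arrangements), and without the SB arrays apart on the second component it was 0.12 for Msln.

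**Figure D2:**
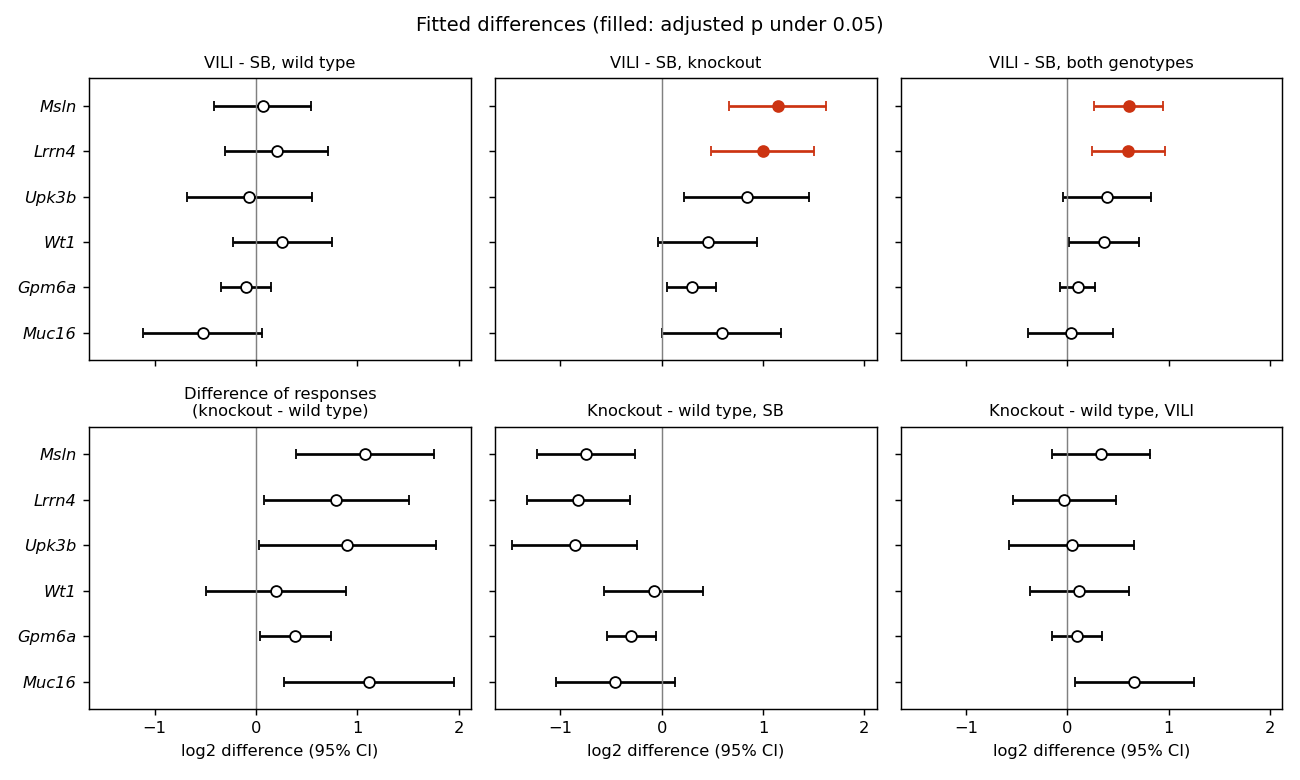
Fitted log2 difference with its 95% confidence interval on the x axis for each of the 6 genes, in each of the 6 comparisons, with filled points for an adjusted p under 0.05. The filled points are Msln and Lrrn4 in the knockout and over both genotypes, and the intervals of 4 genes lie below 0 for knockout against wild type under SB.

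The groups from which the knockout responses started were compared next. Under SB, knockout against wild type differed by -0.75 ± 0.22 for Msln, and Lrrn4 differed by -0.82 ± 0.23, Upk3b by -0.86 ± 0.28 and Gpm6a by -0.30 ± 0.11. None of the 6 members passed (limma adjusted p from 0.703 to 1), and 0.0487% of all genes did. The unadjusted limma p was under 0.05 for these 4 genes, as it was for 3.74% of all genes. For the same 4 genes every knockout SB array lay below every wild-type SB array, which held for 2.31% of all genes tested. Muc16 differed by -0.46 ± 0.27 and Wt1 by -0.08 ± 0.22, both with overlap.

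The low values came mostly from 2 of the 3 knockout SB arrays. Relative to the wild-type SB mean, knockout SB replicate 1 was at -0.93 for Msln, -1.22 for Lrrn4, -1.56 for Upk3b and -0.51 for Gpm6a. Replicate 3 was at -0.86, -0.97, -0.84 and -0.29 for these genes in the same order. Replicate 2, the knockout SB array apart on the second principal component, was nearer, at -0.46, -0.28, -0.18 and -0.09. Replicate 1 was the lowest and replicate 3 the second lowest of all 12 arrays for each of these 4 genes. The second Upk3b probe set had the same 2 arrays lowest, at 8.05 and 8.51 beside 9.32 to 9.89 in the other 10 arrays. The second Gpm6a probe set did not, since knockout VILI replicate 3 had its lowest signal, 10.17. For Wt1 replicate 3 was the lowest and replicate 1 was not low.

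The call of Msln in the knockout held when any 1 array was left out, at 1.05 to 1.29 and an adjusted p of at most 0.0261. Lrrn4 lost its call without knockout VILI replicate 2, at 0.93 (limma adjusted p = 0.0566). Without knockout SB replicate 2, Upk3b passed at 1.18 (limma adjusted p = 0.0121) and Gpm6a at 0.40 (limma adjusted p = 0.0438), and without knockout SB replicate 1 the Upk3b difference was 0.49. When knockout SB replicates 1 and 3 were both left out, a choice made after the values were seen, 1 knockout SB array remained. This was replicate 2, the knockout SB array that stood apart on the second principal component. Msln then differed by 0.85 (limma adjusted p = 0.0865), Lrrn4 by 0.46 (limma adjusted p = 0.192), Upk3b by 0.16 and Gpm6a by 0.09. That fit assumes the lone array to vary as the other groups do.

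**Figure D3:**
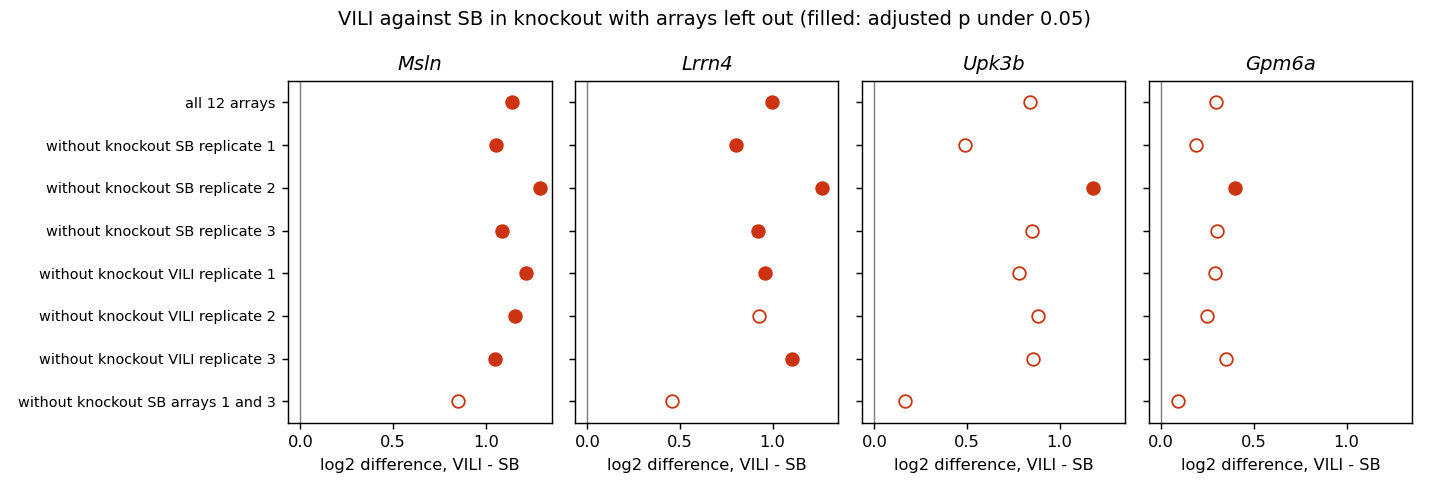
Log2 difference of VILI against SB in the knockout on the x axis for 4 genes, with all 12 arrays and with the knockout arrays named on the y axis left out, filled where the adjusted p was under 0.05. Msln stays between 1.05 and 1.29 without any 1 knockout array, and all 4 genes move toward 0 without knockout SB arrays 1 and 3.

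After VILI no genotype difference was shown for the 4 genes with every knockout SB array below every wild-type SB array. Their intervals were wide, so equal levels are not shown either. Lrrn4 differed by -0.03 (95% confidence interval -0.54 to 0.48), Upk3b by 0.05 (-0.57 to 0.66), Gpm6a by 0.09 (-0.15 to 0.34) and Msln by 0.33 (-0.15 to 0.81). Muc16 had the largest difference, 0.66 ± 0.27 (limma adjusted p = 0.532), from 5.58 to 6.55 in wild type and 6.52 to 6.92 in the knockout. None of the 6 genes passed, where 0.106% of all genes did, and no member had groups that stood apart, as 11.1% of all genes did upward and 9.33% downward. In order of group means, knockout SB was lowest for Msln, Lrrn4, Upk3b, Gpm6a and Wt1, and wild-type VILI was lowest for Muc16. Knockout VILI was highest for Msln, Wt1 and Muc16, and the top 2 groups overlapped for all 6 genes.

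A wider list of 30 genes that mesothelial cells are known to express, many of them shared with lung epithelium, had 25 genes tested. In the knockout 8 of the 25 rose and none fell after VILI, where 8.12% of all genes tested rose and 12.6% fell. Only 14 of the 25 differences were positive, and the others were negative without passing. The median of the 25 was 0.46, against -0.05 over all genes. In wild type 5 of the 25 rose and none fell, where 6.34% of all genes rose and 9.03% fell. There 9 of the 25 differences were positive, and the median was -0.13, against -0.05 over all genes. The simple epithelial keratins rose in both genotypes, and alveolar and airway epithelium express them too. Krt8 rose by 1.45 ± 0.21 in wild type and by 1.74 ± 0.21 in the knockout (limma adjusted p = 0.00197 and 0.000914). Krt18 rose by 1.35 and 1.48, Krt19 by 0.82 and 1.18, and Krt7 by 0.35 and 0.69. The wild-type call of Krt7 was lost in 8 of 23 alternatives, among them the fits without any 1 of the 6 wild-type arrays, where the adjusted p reached 0.086.

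Has1, a hyaluronan synthase of mesothelium and fibroblasts, rose by 4.58 ± 0.58 in wild type and by 3.29 ± 0.58 in the knockout (limma adjusted p = 0.00128 and 0.00529). Its signals were 2.51 to 4.09 in the 6 SB arrays, around the filter level, so the size of the rise is not well measured. The knockout call was lost without knockout SB replicates 1 and 3 (2.45, limma adjusted p = 0.0665). Ezr, the gene of the microvillus protein ezrin, rose in the knockout by 0.64. In wild type it differed by 0.53 ± 0.17 without passing (limma adjusted p = 0.0601). Its knockout call was lost without knockout SB replicate 2, knockout VILI replicate 1 or knockout VILI replicate 2 (largest limma adjusted p 0.0967).

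For Pdpn and Ildr2, as for Msln, a rise was called in the knockout and none in wild type. Unlike Msln, both had every knockout VILI array above every wild-type VILI array, as 11.1% of all genes tested had. Pdpn, the gene of podoplanin on mesothelium, alveolar type 1 cells and lymphatic vessels, had signals of 12.65, 12.42 and 12.70 in knockout SB and 13.31, 13.25 and 13.25 in knockout VILI. All 9 other arrays lay below the knockout VILI arrays, at 12.42 to 12.85. The rise was 0.68 ± 0.09 in the knockout (limma adjusted p = 0.00175), and the wild-type difference was -0.12 ± 0.09. The difference of the responses, 0.80 ± 0.13, did not pass (limma adjusted p = 0.345). Ildr2 rose by 0.74 ± 0.14 in the knockout (limma adjusted p = 0.00754) and differed by -0.20 ± 0.14 in wild type. Its difference of responses, 0.95 ± 0.20, did not pass either (limma adjusted p = 0.569). Knockout against wild type under VILI differed by 0.56 ± 0.09 for Pdpn and by 0.64 ± 0.14 for Ildr2. Neither passed (limma adjusted p = 0.0931 and 0.288).

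Over both genotypes, Krt8, Krt18, Krt19, Krt7, Has1, Pdpn, Ezr and Prg4 rose and Podxl and Igfbp6 fell, so 10 of the 25 genes passed. Over all genes 36.7% passed in this comparison, 14.1% upward and 22.6% downward. The number that passed in either direction is thus near that of genes at large, but the directions are not. Of the list 8 rose and 2 fell, while more of all genes fell than rose. Prg4, the gene of the lubricant lubricin, rose by 1.27 and lost the call without wild-type VILI replicate 1 (limma adjusted p = 0.0506). Podxl at -0.36 and Igfbp6 at -0.26 lost their calls in 10 and 4 of 22 alternatives, among them the fit without the SB arrays apart on the second component. Ezr, Prg4, Podxl and Igfbp6 were named after their values were seen.

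Upk1b, a uroplakin of mesothelium and urothelium, was 1 of 25 genes of the wider list that passed between genotypes, where 0.0325% of all genes were called lower in the knockout under SB and 0.0569% under VILI. Its signals were 9.34 to 9.66 in the 6 wild-type arrays, 6.36, 7.31 and 6.30 in knockout SB and 7.36, 6.83 and 7.77 in knockout VILI. The knockout was lower by -2.79 ± 0.28 under SB (limma adjusted p = 0.0131) and by -2.24 ± 0.28 under VILI (limma adjusted p = 0.023). All 4 probe sets of the gene had every knockout array below every wild-type array. Upk1b and Mylk both lie on chromosome 16, at 38773182 to 38800203 and at 34745199 to 35002436. Whether this shared position had a part in the low Upk1b signal was not tested. The SB call was lost in 6 of 23 alternatives, among them the fits without wild-type SB replicate 1, wild-type SB replicate 2, knockout SB replicate 3 or both knockout SB replicates 1 and 3. The adjusted p reached 0.189 when limma was fitted to these 2 groups alone, at an unmoved difference. The VILI call was lost in 8 of 23, among them the fits without any 1 of wild-type SB replicate 1, wild-type VILI replicates 1, 2 and 3, or knockout VILI replicates 1 and 2, where the adjusted p reached 0.133. In knockout SB, Upk1b was lower in replicates 1 and 3 than in replicate 2, as Lrrn4 and Upk3b were, but Upk1b was lowest in replicate 3 and they were lowest in replicate 1.

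**Figure D4:**
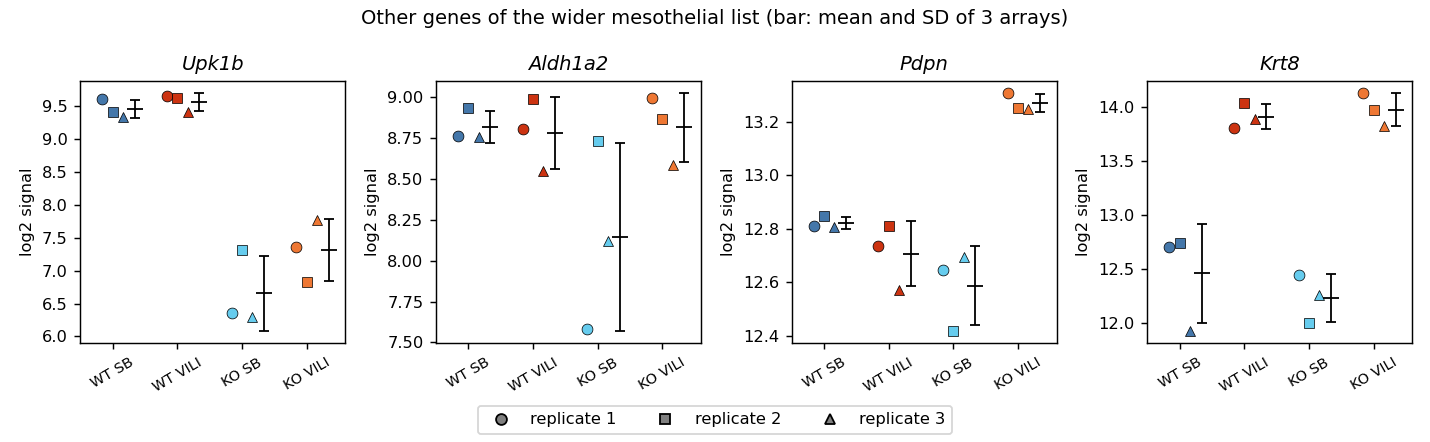
Log2 signal of 4 genes of the wider list on the y axis, by group on the x axis (WT, wild type; KO, nmMLCK-/-), with a point per array and a bar for the mean and SD of 3 arrays. Upk1b is low in all 6 knockout arrays, Aldh1a2 in knockout SB replicates 1 and 3, Pdpn is high in knockout VILI, and Krt8 is high in both VILI groups.

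The genes most like the members over all 12 arrays were sought by Pearson's r with the mean z value of the 6 members, given here as a description. They were Ccdc12 (r = 0.907), 1500011B03Rik (0.894), Aldh1a2 (0.884), Cobl (0.873) and Bmpr1b (0.87), and the members themselves had r from 0.546 for Wt1 to 0.943 for Msln with a mean that contains them. Aldh1a2 encodes a retinaldehyde dehydrogenase that makes retinoic acid and is a known mesothelial gene. Its signals were 7.58, 8.73 and 8.12 in knockout SB, and the lowest of the other 9 arrays stood at 8.55. Aldh1a2 differed by 0.67 ± 0.24 for VILI against SB in the knockout and by -0.67 ± 0.24 for knockout against wild type under SB, and neither passed (limma adjusted p = 0.0755 and 1).

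When deviations from the group means were compared in the same way, the closest genes were Ndn (r = 0.95), Stard6 (0.933), Elfn1 (0.909), Nabp2 (0.909) and Usp43 (0.908). None of these genes was among the closest over all 12 arrays. Rspo1, a secreted Wnt enhancer, had the same pair of arrays lowest. It stood at 7.11, 8.12 and 7.29 in knockout SB and at 7.43 to 8.15 in the other 9 arrays. Nkain4, a membrane gene of the wider list, did not, since knockout SB replicate 2 held its highest signal. It stood at 6.45, 7.93 and 6.92 in knockout SB and elsewhere between 5.85 and 7.54. Neither gene passed in the knockout (limma adjusted p = 0.168 for Rspo1 and 0.107 for Nkain4), and both were chosen after their values were seen. Without knockout SB replicate 2, Rspo1 passed at 0.76 (limma adjusted p = 0.0132) and Aldh1a2 at 0.96 (limma adjusted p = 0.0162), and without knockout SB replicate 1 Nkain4 passed at -1.25 (limma adjusted p = 0.0474).

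Markers of adipose tissue and cardiac muscle were read beside these results. The summed linear signal of 10 adipose genes was 58482 in knockout SB replicate 1, against 6738 to 31423 in the other 11 arrays. The summed signal of 10 cardiac muscle genes was 67001 in the same array, against 16264 to 55967 in the others. Knockout SB replicate 3, in which the members were also low, had sums of 11600 and 28524, inside the ranges of the other arrays. None of the 8 tested adipose genes and none of the 10 tested cardiac genes passed in either genotype, at medians of -1.13 and -0.72 for VILI against SB in the knockout. Over both genotypes Thrsp and Actc1 fell. Lep and Ucp1 were under the filter level. Their part in the low values of the members was not tested.

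Markers of other cells moved with VILI too, and their counts stand beside 8.12% of all genes that rose and 12.6% that fell in the knockout, and 6.34% and 9.03% in wild type. All 11 neutrophil genes tested rose in the knockout and 5 rose in wild type. None of the 11 passed for the difference of responses, where 0% of all genes tested did. The summed signal was 4160 to 5398 in knockout SB and 36331 to 61188 in knockout VILI. In wild type it was 6290 to 43207 under SB and 31531 to 53466 under VILI. The 43207 was wild-type SB replicate 3, and the other wild-type SB arrays stood at 6290 and 8374. Of 12 alveolar type 1 genes, Rtkn2 fell in each genotype and none rose. Of 11 ciliated genes, 4 fell in the knockout and 6 in wild type, while none of 10 secretory airway genes passed in either. Of 12 fibroblast genes, Col1a1 rose and Dcn, Lum, Mfap5 and Tcf21 fell in the knockout, and in wild type Col1a1 and Col3a1 rose and Tcf21 fell. Of 12 endothelial genes, Cldn5 rose and Tek, Ramp2, Egfl7, Sox18 and Car4 fell in the knockout, and in wild type Cldn5 and Esam rose and Ramp2, Egfl7 and Sox18 fell. Acta1 rose in each genotype among 6 tested skeletal muscle genes. These genes of other cells were named because they passed. What part these shifts had in the members' values was not tested.

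**Figure D5:**
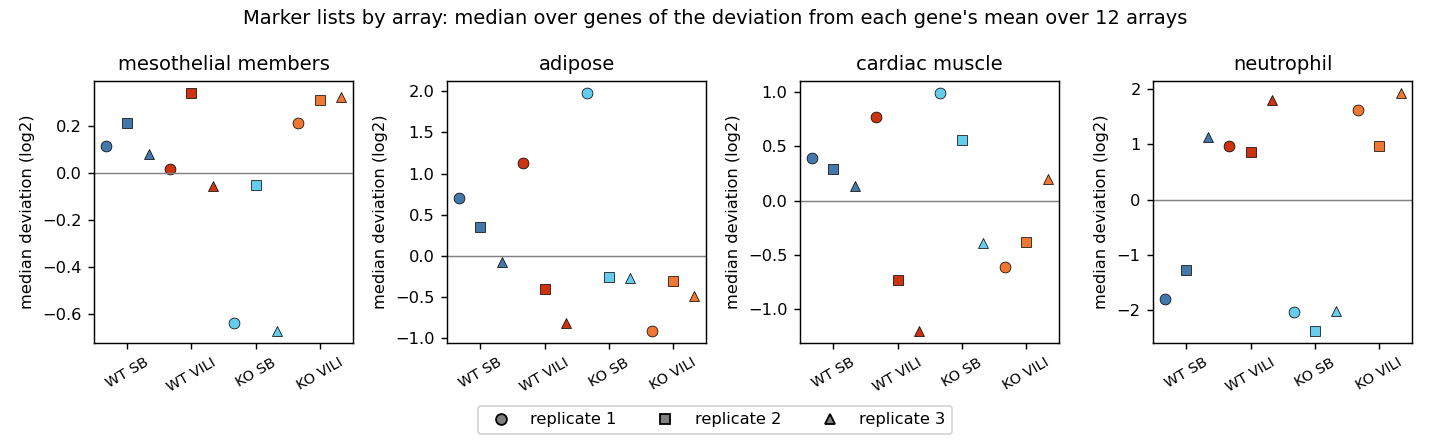
Median over the genes of a list of the log2 deviation from each gene's mean over 12 arrays (y axis), per array and grouped on the x axis (WT, wild type; KO, nmMLCK-/-), for the 6 mesothelial members and the adipose, cardiac muscle and neutrophil lists. The members are lowest in knockout SB replicates 1 and 3, at -0.64 and -0.67, and the adipose list is highest in knockout SB replicate 1, at 1.98.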

How the data were processed

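Per the labels' protocols, biotin-labelled cRNA from total lung RNA was hybridised to 1 array per sample. The authors deposited 1 log2 signal for each probe set and array, on a common scale between arrays. MAS5 and GCRMA are named in the submitters' processing notes, with no version or role, and the sources used here give no genome build. Such signals range here from 0.7505 to 16.29, and dim ones are compressed.

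Of 45037 probe sets, 34945 carried 1 symbol in the 2016 platform annotation, 932 several and 9160 none. Those with a mean under the 40th percentile (3.056) were left out, and each gene was read by its brightest probe set, which left 12309 genes. limma 3.58.1 in R 4.3.3 (lmFit, eBayes) was fitted to 4 group means over 12 arrays, with Benjamini-Hochberg adjustment within each of 6 comparisons. The gene test was tested on simulated data. Members and lists were chosen with earlier results of these data known. The genes named are the members, up to 8 passing genes of the wider list with the smallest p, and the 5 genes most like the members by each measure; others are marked. The number of arrays limits the precision. Alternatives were the filter, scaling, probe set rule, replicate block, moderation, arrays fitted and arrays left out. No batch is given in the labels.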

Additional observations from a re-analysis of the deposited data

How the results depend on the processing

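Of 804 refits of the 36 member differences, 766 kept their direction and their side of the adjusted p of 0.05, 23 reversed, 10 newly passed and 5 no longer passed. The reversed ones had passed under no setting. Most of the 36 differences had not passed with all arrays, so most refits had no call to lose. Only Msln and Lrrn4 had passed, in the knockout and over both genotypes, and the 5 losses fell on these calls.

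Leaving out 1 array at a time, VILI against SB in wild type ranged from -0.13 to 0.21 for Msln and from -0.22 to 0.0725 for Upk3b. In the knockout it ranged from 0.80 to 1.27 for Lrrn4, 0.49 to 1.18 for Upk3b and 0.19 to 0.40 for Gpm6a. Over both genotypes the ranges were 0.21 to 0.56 for Upk3b and -0.10 to 0.17 for Muc16. The difference of responses of Wt1 ranged from -0.0648 to 0.36. Knockout against wild type ranged from -0.24 to 0.18 for Wt1 and from -0.24 to 0.51 for Nkain4 under SB, and under VILI from -0.14 to 0.0776 for Lrrn4, -0.0905 to 0.20 for Upk3b and -0.0231 to 0.19 for Wt1. The genes called ranged from 933 to 2052 in wild type, 1232 to 3301 in the knockout, 0 to 6 for the difference of responses, and 0 to 16 under SB and 2 to 19 under VILI between genotypes.

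Without knockout SB arrays 1 and 3, an alternative chosen after seeing the data, the knockout response was 0.85 for Msln, 0.46 for Lrrn4 and -0.15 for Rspo1. Over both genotypes it was 0.46 for Msln, 0.33 for Lrrn4, 0.21 for Wt1, -0.0023 for Gpm6a, -0.0339 for Muc16 and -0.0272 for the second Upk3b probe set. The difference of responses of Wt1 was then -0.10. Knockout against wild type under SB was 0.22 for Wt1 and 0.0792 for Rspo1. The counts of genes called were 3 for the difference of responses, 14 between genotypes under SB and 8 under VILI.

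Without the SB arrays apart on the second component, Msln differed by -0.13 in wild type, and Upk3b by 1.18 and Gpm6a by 0.40 in the knockout. Over both genotypes the values were 0.58 for Msln, 0.56 for Upk3b, 0.49 for Wt1, -0.0622 for Muc16 and 0.0266 for the second Gpm6a probe set. The counts were 11 for the difference of responses, 19 between genotypes under SB and 28 under VILI.

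Upk3b in the knockout, at an unmoved 0.84, passed with the filter at the 60th percentile and with trend and robust moderation in limma. Muc16 at 0.59 passed with the groups compared fitted alone, a setting that called 845 genes in wild type and 0 between genotypes under SB. The mean of a gene's probe sets gave -0.0088 for Upk3b and -0.0587 for Gpm6a between genotypes under VILI. Testing all probe sets called 7191 over both genotypes. With no filter, 1 gene passed for the difference of responses and 6 between genotypes under VILI, and with the filter at the 60th percentile 8 passed there. The cause of these shifts was not tested.

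The replicate numbers share only a number: 3 of 18 same-numbered pairs of arrays had deviations with r over 0.1, and 3 arrays correlated best with their own number. With the replicate block, Msln in the knockout differed by 1.14 (limma adjusted p = 0.0108), 0 genes passed between genotypes under SB and 2 under VILI. No call of a member changed under the replicate block. Of the wider list, Krt7 in wild type (limma adjusted p = 0.0503), Podxl over both genotypes (0.0502) and Upk1b between genotypes under SB (0.0656) and VILI (0.118) no longer passed with it. Each group held only 3 arrays. Separately, signals near the filter level, such as those of Wt1, are compressed.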
